A study of Mus musculus with 2 samples.

Results

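The SoxB genes Sox1, Sox2, Sox3 and Sox21 were described in the transcriptome of mouse embryonic stem cells that carried a Gbx2 expression vector, set against cells with the empty vector. The 4 genes were taken by symbol out of 14500 gene symbols in the deposited table, and all 4 have a row. They were picked as a group after their levels in these libraries were known, so those levels are a description and carry no test.

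SoxB proteins are transcription factors that bind DNA through an HMG box, a DNA-bending domain. Sox1, Sox2 and Sox3 form the SoxB1 group and mostly activate their targets. Sox21 belongs to the SoxB2 group, which binds similar sites and represses. In embryonic stem cells Sox2 works with the POU factor Oct4, encoded by Pou5f1, to keep the cells pluripotent. In the early nervous system the SoxB1 genes mark dividing neural progenitors, and Sox21 favours their exit from that state. Gbx2 is a homeobox transcription factor that patterns the boundary of midbrain and hindbrain in the embryo.

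The study sequenced total RNA of 46C cells, a mouse embryonic stem cell line, at passages 21 to 24, grown on gelatin in serum medium with LIF. The PB-Gbx2 library stands for cells given the Gbx2 vector and the PB library for cells given the empty vector, with 1 library in each group and no replicate. Groups follow the titles. The source names in the labels state the opposite assignment, and if they were right every direction given here would turn around. Gbx2 itself stood at a level of 1178 in the PB-Gbx2 library and 345 in the PB library, 3.41-fold higher in PB-Gbx2, which goes with the titles. The files do not separate vector-derived from endogenous Gbx2 reads.

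Levels are whole numbers that the authors normalized. Sorted by size, the levels of the PB-Gbx2 library equal those of the PB library in all 14501 rows, as after quantile normalization, with a median of 388 in each library. Read depth is unknown. No interval or detection floor can be given, and no difference between the libraries was tested against replicate spread. As defining markers of the labelled cells, Pou5f1, Nanog, Zfp42, Esrrb, Dppa5a and Tdgf1 had levels of at least 7508 in both libraries. In bulk RNA, a change in the number of cells that express a gene cannot be told apart from a change in the amount of RNA per cell.

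46C cells carry a green fluorescent protein reporter in place of Sox1 coding sequence on a targeted allele. Reads from the reporter sequence itself do not count as Sox1 reads, and the reporter has no row of its own. Any untranslated Sox1 sequence kept in the reporter transcript would count as Sox1, and the labels do not settle whether there is any. The Sox1 level thus comes from the remaining Sox1 sequence. Each of the 4 genes is a single-exon gene with 1 transcript in GENCODE M21. By RefSeq on GRCm38.p6, Sox1 lies on chromosome 8, Sox2 on chromosome 3, Sox3 on chromosome X and Sox21 on chromosome 14. The table itself gives no coordinates, and its reads were aligned to mm9.

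RefSeq promoter sequences on GRCm38.p6 were matched for Sox1, Sox2 and Sox21. The bases before the start of Sox21, the member with the largest ratio between the libraries, and of Sox2, the member with the smallest, are shown so that they can be set side by side. The Sox1 stretch is shown because it holds an exact octamer, the site of POU factors. Capitals mark matches to the motifs ACAAAG and ACAATG (SOX), ATGCAAAT (octamer) and TAATTA (homeodomain), searched on both strands. Sox21 covers chr14:118237031-118237280 on the minus strand, Sox2 covers chr3:34649745-34649994 on the plus strand, and the Sox1 stretch covers chr8:12395526-12395555 on the plus strand.
Sox21: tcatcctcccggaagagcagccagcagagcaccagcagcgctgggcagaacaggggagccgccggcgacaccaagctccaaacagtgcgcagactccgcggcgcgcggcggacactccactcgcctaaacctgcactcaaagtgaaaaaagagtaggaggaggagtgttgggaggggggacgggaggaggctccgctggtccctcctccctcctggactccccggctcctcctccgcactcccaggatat
Sox2: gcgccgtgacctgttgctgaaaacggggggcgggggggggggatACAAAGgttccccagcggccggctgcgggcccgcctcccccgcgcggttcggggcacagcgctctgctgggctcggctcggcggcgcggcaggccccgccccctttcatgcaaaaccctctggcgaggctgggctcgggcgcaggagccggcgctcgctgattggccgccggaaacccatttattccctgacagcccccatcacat
Sox1: gccagcgcgccATGCAAATcaccgccgccg

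The Sox2 window held ACAAAG starting 206 bases before the RefSeq start, a motif found in 18.7% of all 32851 RefSeq promoters of 300 bases. The Sox1 octamer begins at base 19 of the RefSeq transcript, and 1.74% of the promoters hold an exact octamer. None of these motifs was found in the Sox21 window of the same length. ACAATG, found in 12.6% of promoters, and TAATTA, found in 5.29%, were in none of the 3 windows. The upstream stretches were rich in G and C, with 65.2% in Sox21, 72.0% in Sox2 and 71.2% in Sox1, against a median of 52.4% over all promoters. A match is a description of letters and not a site of binding.

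Sox21 was the SoxB gene that differed most between the libraries. Its level was 658 in PB-Gbx2 and 44 in PB, 14.95-fold higher in PB-Gbx2. On log2(level + 1) the ratio was 3.87, the 7th highest of all 14500 symbols. Sox21 thus stood above 62.3% of symbols or level with them in PB-Gbx2, and above 17.1% or level with them in PB. In the authors' deposited table Sox21 has an adjusted p of 1.05e-07, the 2nd smallest p-value of all rows. That p rests on 1 library per group and is quoted as theirs.

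Sox1, the earliest specific marker of neural commitment among these genes, stood at 56 in PB-Gbx2 and 10 in PB. The difference was 5.60-fold, a log2 ratio of 2.37. Sox3, which overlaps with Sox1 and Sox2 in function in neural progenitors, stood at 30 in PB-Gbx2 and 3 in PB. Its ratio was 10.0-fold, or 2.95 on log2(level + 1). Both genes were near the bottom of the table in PB, where 1.67% of symbols had a level at or below that of Sox1 and 0.207% at or below that of Sox3. In PB-Gbx2 these shares were 19.98% for Sox1 and 12.5% for Sox3. No row has a mean level under 8, so a gene at 3 in PB has a row only through a higher PB-Gbx2 level. The PB shares follow in part from that limit, and nothing is read from them. The authors' deposited table gives Sox1 and Sox3 an adjusted p of 1, with unadjusted p-values of 0.109 and 0.175.

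Sox2, the core pluripotency factor, stood at 10302 in PB-Gbx2 and 9894 in PB. That is a ratio of 1.04-fold and a log2 ratio of 0.06. It ranked 183rd of all symbols by level in PB-Gbx2 and 193rd in PB. The authors' deposited table gives it an unadjusted p of 0.847. A lack of difference in RNA says nothing of Sox2 protein.

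Thus 3 of the 4 SoxB genes passed 2-fold upward in PB-Gbx2 and none downward. Of all symbols, 5.14% were that much higher in PB-Gbx2 and 5.26% that much lower. The shares were 11.6% higher and 12.2% lower at 1.5-fold, and 2.46% higher and 2.37% lower at 2-fold among symbols with a level of 100 or more in some library. The members were chosen on this contrast, so nothing is read from that comparison. At a level of 3 in PB, Sox3 has a row only through its PB-Gbx2 level, since no row has a mean level under 8. Its call past 2-fold follows from that. The absolute differences in level were small for the rare genes, at 46 for Sox1 and 27 for Sox3, against 614 for Sox21 and 408 for Sox2. Sox1 and Sox3 thus passed 2-fold on smaller differences in level than the one at Sox2, which did not pass.

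**Figure D1:**
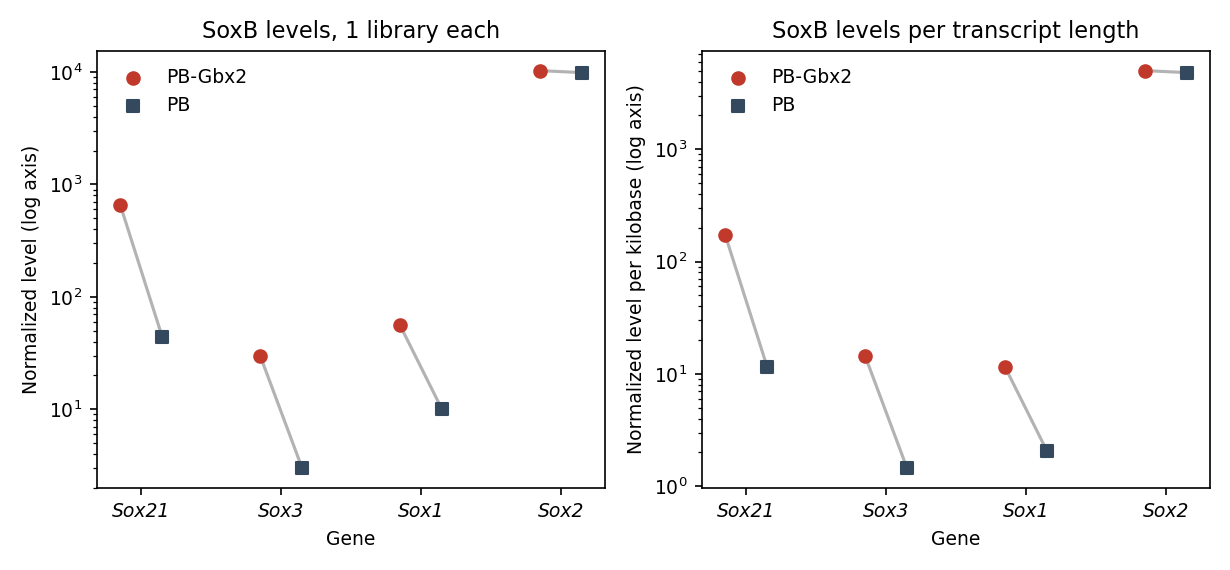
Levels of the SoxB genes in the PB-Gbx2 library (circles) and the PB library (squares), 1 library each, on log axes: normalized level at left and level per kilobase of the longest transcript at right. Sox21, Sox3 and Sox1 were higher in PB-Gbx2, and Sox2 differed by 1.04-fold.

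Genes of different length can be compared only per length, so levels were divided by the length of the longest transcript in kilobases. Per kilobase, Sox2 stood at 5008 in PB-Gbx2 and 4810 in PB. Sox21 stood at 173 per kilobase in PB-Gbx2 and 11.6 in PB. Sox3 stood at 14.5 per kilobase in PB-Gbx2 and 1.45 in PB, and Sox1 at 11.6 in PB-Gbx2 and 2.07 in PB. The order in PB-Gbx2 was Sox2, Sox21, Sox3 and Sox1, while in PB Sox1 came before Sox3. By coding length, Sox1 stood above Sox3 in both libraries, at 47.7 and 22.2 per kilobase in PB-Gbx2 and at 8.53 and 2.22 in PB. The order of Sox1 and Sox3 thus turns with the length used in PB-Gbx2, and with 1 library each it cannot be set against any spread. Neither length allows for the Sox1 coding sequence that the reporter replaced on the targeted allele.

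Sox2 supplied nearly all SoxB1 RNA in both cultures. It made up 99.48% of the summed SoxB1 level per kilobase in PB-Gbx2 and 99.93% in PB. Sox1 made up 0.230% in PB-Gbx2 and 0.0430% in PB, and Sox3 0.289% in PB-Gbx2 and 0.0302% in PB. The summed SoxB1 level was 1.05-fold higher in PB-Gbx2. Sox21, the SoxB2 repressor, amounted to 3.46% of Sox2 per kilobase in PB-Gbx2 and 0.241% in PB. Sox2 therefore exceeded Sox21 28.9-fold in PB-Gbx2 and 415-fold in PB. These shares depend on the length used: with coding length in place of transcript length, Sox21 amounted to 7.38% of Sox2 in PB-Gbx2 and 0.514% in PB.

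**Figure D2:**
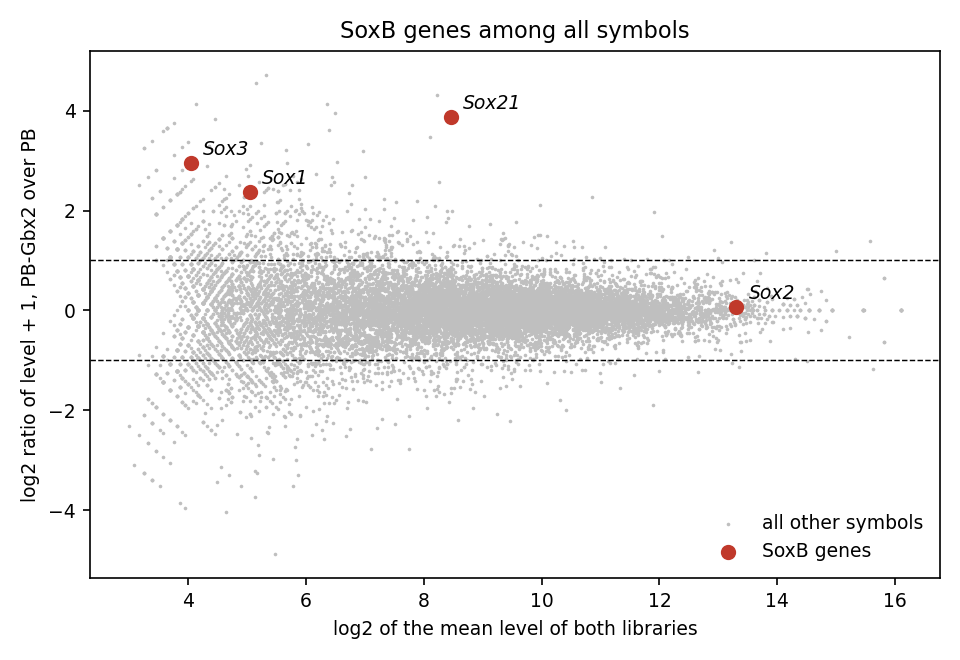
The log2 ratio of level + 1, PB-Gbx2 over PB, against the log2 mean level for all symbols (grey) and the SoxB genes (red), with dashed lines at 2-fold. The cloud widens towards low levels, where Sox1 and Sox3 lie, and Sox21 lies at a mean level of 351 where the cloud is narrow.

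How far each gene stood from others of like abundance was described by the genes whose mean level lay within 1.5-fold of it. Around Sox21 there were 2462 such genes, with an SD of log2 ratios of 0.48, and 1.79% of them were at least 2-fold higher in PB-Gbx2. A single gene among them, Bhmt, had a ratio as high as Sox21. Around Sox3 the SD was 1.11 over 1280 genes and 18.6% were at least 2-fold higher. There 14 genes had a ratio as high as Sox3. Around Sox1 the SD was 0.97 over 1566 genes, 12.7% were at least 2-fold higher and 21 had a ratio as high. Passing 2-fold was thus about as common downward as upward at these low levels, since 13.7% of the genes around Sox1 and 17.6% of those around Sox3 were at least 2-fold lower. Around Sox2 the SD was 0.34 over 263 genes, 1.9% were at least 2-fold higher, and 103 of them had a ratio at or above that of Sox2.

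**Figure D3:**
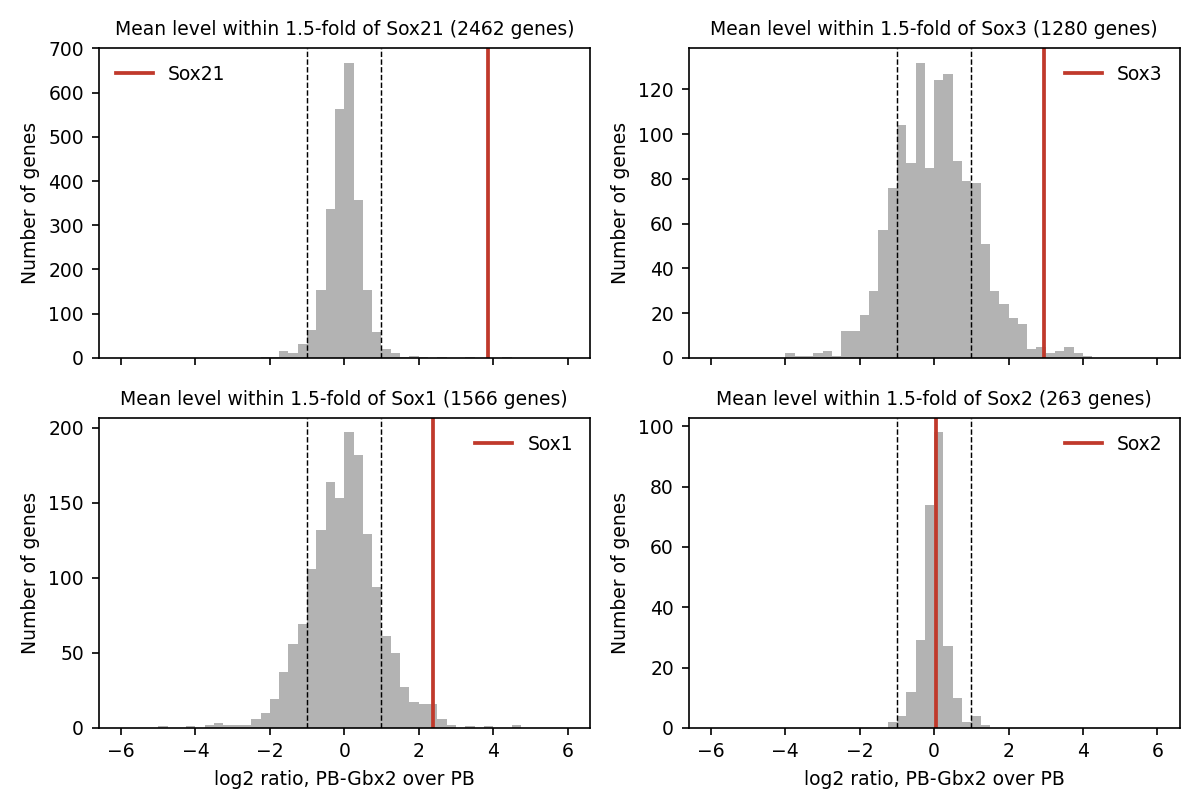
Histograms of the log2 ratio, PB-Gbx2 over PB, for genes whose mean level lies within 1.5-fold of each SoxB gene, with the SoxB gene as a red line and 2-fold as dashed lines. The histograms around Sox3 and Sox1 are broad (SD 1.11 and 0.97), the one around Sox21 is narrow (SD 0.48), and Sox2 lies in the middle of its histogram.

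The authors' p-values followed the levels alone. Of 969 pairs of levels that more than 1 row of the authors' deposited table shares, all 969 carry a single p-value. Among the genes around Sox1, 13 have an unadjusted p under 0.05 in that table, and the smallest fold among them is 6, just above the 5.60-fold of Sox1. Around Sox3 a single gene has such a p, at a 21.0-fold difference. Around Sox21 there are 109 such genes, the smallest at 1.89-fold. At the levels of Sox1 and Sox3 the deposited p-values therefore passed 0.05 at much larger folds than at the level of Sox21.

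Genes with the most similar pair of levels were picked as the 3 nearest in the plane of both log2 levels, over 2 libraries. Predicted genes with Gm symbols, symbols that end in Rik and symbols that read as dates were left out. Sox21 had few neighbours there. The nearest was Dmgdh, a mitochondrial dimethylglycine dehydrogenase, at 508 in PB-Gbx2 and 45 in PB. It was followed by Bhmt, a betaine-homocysteine methyltransferase, at 572 in PB-Gbx2 and 28 in PB, and by Cd80, an immune costimulatory ligand, at 524 in PB-Gbx2 and 87 in PB. Grin2a, an NMDA receptor subunit, had exactly the levels of Sox3. Tspan12 (27 in PB-Gbx2 and 3 in PB) and Adcy2 (24 in PB-Gbx2 and 3 in PB) came next to it. Rpl31, a ribosomal protein gene, had exactly the levels of Sox2, followed by Rpl35a and Tuba1b. Nearest to Sox1 were Usp17ld and Zfp964, both at 54 in PB-Gbx2 and 10 in PB, and Kdm4dl at 52 in PB-Gbx2 and 10 in PB. Shared pairs of low whole numbers are common, so likeness at the level of Sox1 and Sox3 says little.

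Beyond SoxB, 7 of 16 listed genes of the Sox family have a row, and the other 9 were not analysed here. On log2(level + 1) none of the 7 passed 2-fold in either direction, beside 5.14% higher and 5.26% lower over all symbols. All 7 lay above 0, and their median was 0.28, against 0 over all symbols. Of the SoxC genes, which act in differentiating neurons and other tissues, Sox4 stood at 280 in PB-Gbx2 and 140 in PB, exactly 2-fold in level and just under the threshold on log2(level + 1) at 0.99. Sox11 stood at 302 in PB-Gbx2 and 248 in PB, and Sox12 at 1184 in PB-Gbx2 and 1172 in PB. Sox15, the SoxG gene that is expressed in stem cells, stood at 976 in PB-Gbx2 and 790 in PB. The SoxD gene Sox13 stood at 684 in PB-Gbx2 and 622 in PB. The SoxE genes, known for glia and neural crest, were low, with Sox8 at 39 in PB-Gbx2 and 31 in PB and Sox10 at 29 in PB-Gbx2 and 26 in PB.

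Of 6 listed POU factors that bind beside Sox proteins, 4 have a row, and 1 of these passed 2-fold upward, beside 5.14% over all symbols. Pou5f1, the partner of Sox2 in stem cells, stood at 10597 in PB-Gbx2 and 9446 in PB. Pou2f1 (Oct1), a broadly expressed octamer factor, was lower, at 954 in PB-Gbx2 and 1351 in PB. Pou3f1 (Oct6), a factor of the epiblast, stood at 176 in PB-Gbx2 and 206 in PB. Pou3f3 (Brn1), a neural POU factor, stood at 26 in PB-Gbx2 and 1 in PB and was the gene that passed 2-fold. Its level in PB is the lowest value in the table, so its ratio is coarse. As no row has a mean level under 8, Pou3f3 has a row only through its PB-Gbx2 level, and its call follows from that.

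**Figure D4:**
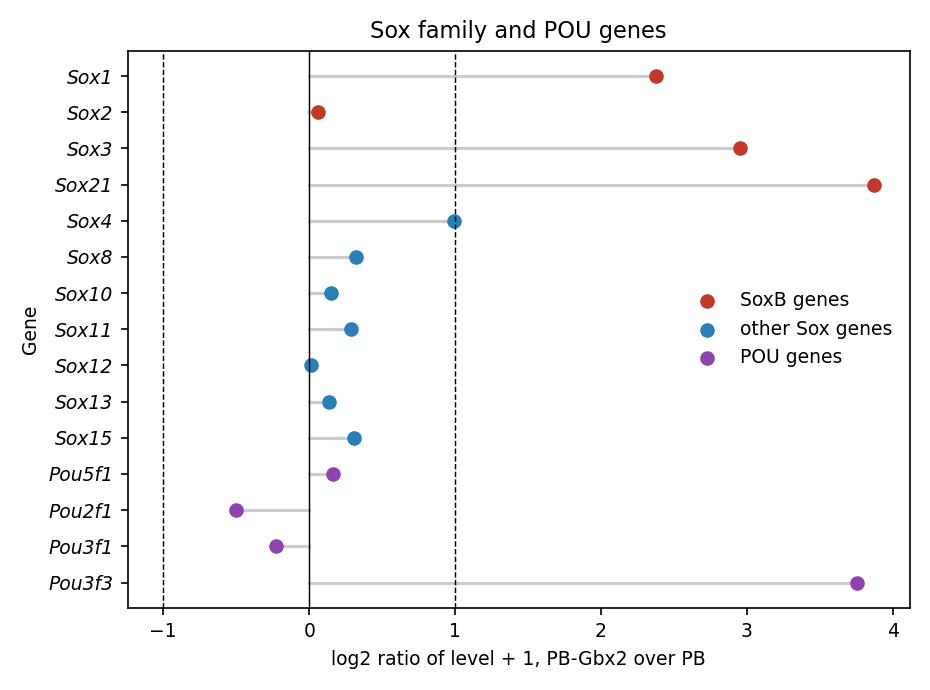
The log2 ratio of level + 1, PB-Gbx2 over PB, for SoxB genes (red), other Sox genes with a row (blue) and POU genes (purple), with dashed lines at 2-fold. Sox1, Sox3, Sox21 and Pou3f3 passed 2-fold, and Sox4 lay at 0.99. The calls of Sox3 and Pou3f3 follow from the limit that no row has a mean level under 8.

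Genes bound by Sox2 together with Oct4 in embryonic stem cells were mixed. Of 17 listed genes 4 were at least 2-fold higher and 1 lower, beside 5.14% higher and 5.26% lower over all symbols, with a median log2 ratio of 0.17. The homeobox gene Nanog was higher, at 19872 in PB-Gbx2 and 8918 in PB, as was Klf4, a Kruppel-like factor, at 10924 in PB-Gbx2 and 4701 in PB. Fbxo15, an early reporter gene of this pair of factors, stood at 2753 in PB-Gbx2 and 1324 in PB, and Zfp42 (Rex1) at 16671 in PB-Gbx2 and 8320 in PB. Lefty1, a Nodal antagonist, was lower, at 34 in PB-Gbx2 and 180 in PB. Fgf4, whose enhancer was the first known target of Sox2 with Oct4, stood at 7356 in PB-Gbx2 and 5290 in PB, and Utf1 at 3430 in PB-Gbx2 and 3843 in PB. Sox2 and Pou5f1 levels differed by at most 1.12-fold. Any part of either factor in the differences of the listed genes was not tested.

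Regulators of neural induction, which act upstream of the SoxB1 genes or against them, had 13 of 18 genes with a row. Of these, 2 passed 2-fold upward and none downward, beside 5.14% higher and 5.26% lower over all symbols, and the median was -0.17. Hes1, a Notch target that holds progenitors undifferentiated, stood at 838 in PB-Gbx2 and 414 in PB. Sall3, a zinc finger repressor, stood at 104 in PB-Gbx2 and 41 in PB, and the receptor gene Notch1 at 1811 in PB-Gbx2 and 1155 in PB. Otx2, an anterior neural and epiblast factor, stood at 373 in PB-Gbx2 and 492 in PB, and Rest, which silences neuronal genes, at 5223 in PB-Gbx2 and 5608 in PB.

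Other genes of SoxB1-positive neural progenitors were listed with 22 symbols, of which 9 have a row. None of the 9 passed 2-fold upward and 1 did so downward, beside 5.14% higher and 5.26% lower over all symbols, with a median of 0.24. At 1.5-fold, Nes, Gli3 and Notch1 were higher, 3 of the 9, beside 11.6% higher over all symbols at that threshold. Their summed level was 7867 in PB-Gbx2 and 7574 in PB. Nes, the intermediate filament nestin, stood at 733 in PB-Gbx2 and 405 in PB, and Gli3, a Hedgehog effector, at 134 in PB-Gbx2 and 81 in PB. Dll1, a Notch ligand, was 2.56-fold lower, at 120 in PB-Gbx2 and 307 in PB. Msi1, an RNA-binding protein of neural stem cells, stood at 696 in PB-Gbx2 and 611 in PB. The other 13, Pax6 and Hes5 among them, were not analysed here.

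Of 16 listed proneural and neuron genes, 9 have a row. None of the 9 passed 2-fold downward and 1 did so upward, beside 5.14% higher and 5.26% lower over all symbols, while 8 lay below 0 and the median was -0.63. Tubb3, a neuronal tubulin, stood at 756 in PB-Gbx2 and 1248 in PB, and Elavl3 (HuC), an RNA-binding protein of neurons, at 427 in PB-Gbx2 and 756 in PB. Ebf1 stood at 20 in PB-Gbx2 and 34 in PB. Neurod1, a proneural factor, went the other way and was 3.45-fold higher, at 517 in PB-Gbx2 and 150 in PB. The summed level of the list was 6366 in PB-Gbx2 and 8558 in PB, most of it Stmn2 (4414 in PB-Gbx2 and 6018 in PB). None of the 9 was at 0 in either library, but no gene with a row is, so that says nothing of neuron genes.

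Markers of other cell types that such cultures can hold were read beside the same 5.14% higher and 5.26% lower over all symbols. Among glia and neural crest markers, Foxd3, which is also a stem cell factor, was the single one of 9 with a row past 2-fold, at 538 in PB-Gbx2 and 134 in PB. Ngfr stood at 1286 in PB-Gbx2 and 802 in PB. Gfap stood at 16 in PB-Gbx2 and 32 in PB, exactly 2-fold lower in level but short of the threshold on log2(level + 1) at -0.96. The summed level of these markers was 3043 in PB-Gbx2 and 2369 in PB. Of 8 fibroblast markers with a row, Fn1 (70328 in PB-Gbx2, the top value of the scale, and 26866 in PB) and Tagln (44 in PB-Gbx2 and 20 in PB) were higher and Col1a1 (36 in PB-Gbx2 and 132 in PB) was lower. Col1a2 stood at 18 in PB-Gbx2 and 9 in PB, exactly 2-fold in level and likewise under the threshold at 0.93. The summed level of the fibroblast list was 72850 in PB-Gbx2 and 30233 in PB, most of it Fn1. Without Fn1 the sum would be lower in PB-Gbx2. Of the 8 fibroblast markers, 4 lay above 0 and 4 below, with a median log2 ratio of 0.20.

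Of 8 endoderm and trophectoderm markers with a row, Gata6 was higher (45 in PB-Gbx2 and 18 in PB). The keratins Krt8 (225 in PB-Gbx2 and 532 in PB), Krt18 (164 in PB-Gbx2 and 363 in PB) and Krt19 (54 in PB-Gbx2 and 377 in PB) were lower. The summed level of all 8 was 3266 in PB-Gbx2 and 2943 in PB. Tfap2c made up much of it, at 2439 in PB-Gbx2 and 1441 in PB, and without Tfap2c the sum would be lower in PB-Gbx2. By gene, 5 of the 8 lay above 0 and 3, the keratins, below, with a median log2 ratio of 0.48. The part of any cell type in the SoxB levels was not tested. Of the 14 pluripotent stem cell markers, 3 passed 2-fold upward and none downward, beside 5.14% higher and 5.26% lower over all symbols, with a median of 0.25. These 3, Nanog, Zfp42 and Klf4, are also among the Sox2 and Oct4 targets counted above. Lin28a, an RNA-binding protein of stem cells, stood at 2863 in PB-Gbx2 and 4206 in PB, and Esrrb, an orphan nuclear receptor, at 9456 in PB-Gbx2 and 7508 in PB.

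**Figure D5:**
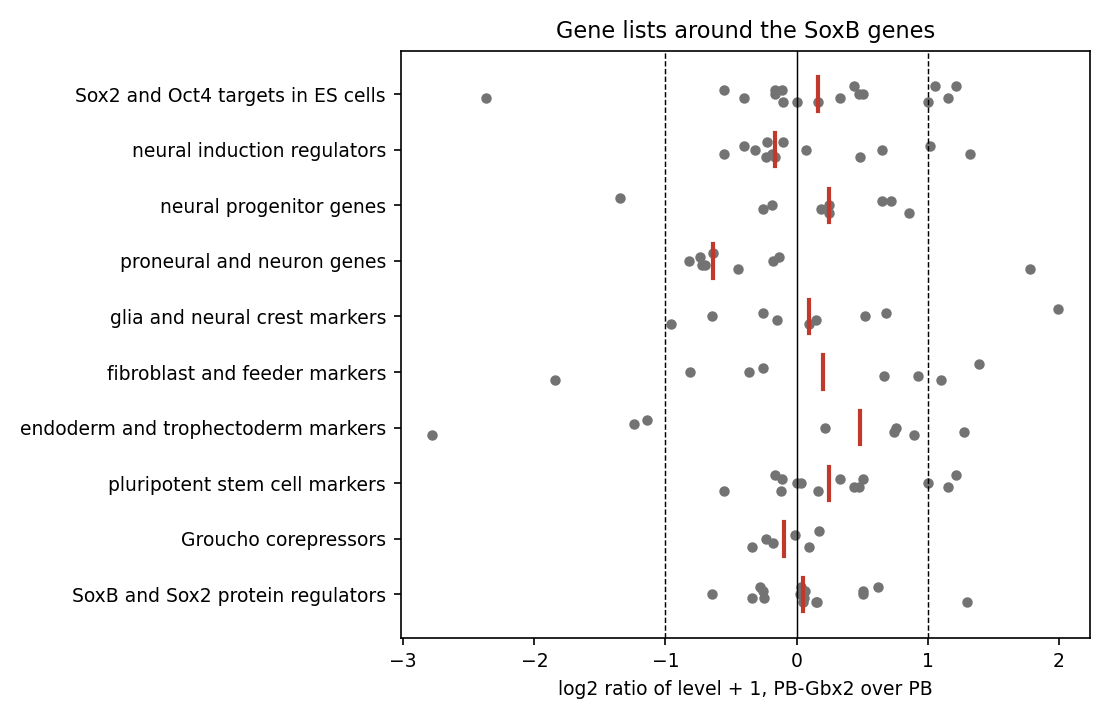
The log2 ratio of level + 1, PB-Gbx2 over PB, for each gene with a row in 10 lists (points), with the list median as a red line and 2-fold as dashed lines. The median of proneural and neuron genes lay at -0.63 and that of neural progenitor genes at 0.24.

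Genes of proteins that work with SoxB factors or modify them were read against the same 5.14% higher and 5.26% lower over all symbols, and their counts lay near it. Of 6 Groucho corepressor genes with a row, none passed 2-fold and the median was -0.10. Tle6 stood at 740 in PB-Gbx2 and 937 in PB, Tle3 at 2216 in PB-Gbx2 and 2603 in PB, Tle2 at 111 in PB-Gbx2 and 126 in PB, and Aes at 6090 in PB-Gbx2 and 5404 in PB. Of 16 genes that regulate or bind Sox2, 1 passed 2-fold, with a median of 0.05. Ogt, which adds GlcNAc to proteins, stood at 6334 in PB-Gbx2 and 9882 in PB. Chd7, a chromatin remodeller that binds Sox2 in neural stem cells, stood at 690 in PB-Gbx2 and 449 in PB. Trp53 stood at 5926 in PB-Gbx2 and 4162 in PB. The 1 past 2-fold was Sox2ot, the long noncoding RNA that overlaps Sox2, at 36 in PB-Gbx2 and 14 in PB.

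Overlap with other transcripts limits how the SoxB levels can be read, since the kit named in the labels does not mark strand. Sox2ot overlaps Sox2, and stood at 36 in PB-Gbx2 where Sox2 stood at 10302, without division by length. How reads in an overlap were counted is not given, so the Sox2ot level does not measure the overlap. RefSeq also places the predicted gene Gm4675 over Sox21, and Gm4675 stood at 22 in PB-Gbx2 and 4 in PB, 5.50-fold higher in PB-Gbx2. Reads from the overlap of Gm4675 and Sox21 cannot be told apart by strand, so these values may not be independent. RefSeq places Sox1ot over Sox1, and it was not analysed here.

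Of the genes next to the SoxB genes on the chromosome, up to 3 with a row were taken on each side, 24 in all. Of these, 1 passed 2-fold upward and 1 downward, near the 5.14% higher and 5.26% lower over all symbols, with a median log2 ratio of 0.06. Beside Sox21, Gpr180 stood at 202 in PB-Gbx2 and 271 in PB, and Abcc4, a drug and nucleotide exporter, at 1531 in PB-Gbx2 and 1284 in PB. Mir17hg, the host of a microRNA cluster, was 2.20-fold higher at 388 in PB-Gbx2 and 176 in PB. Beside Sox3, Ldoc1 was lower, at 10 in PB-Gbx2 and 32 in PB. Fgf13 stood at 46 in PB-Gbx2 and 23 in PB, exactly 2-fold in level and under the threshold on log2(level + 1) at 0.97. Ratios of the 6 genes beside Sox1 ranged over 0.634-fold to 1.51-fold, and those of the 6 beside Sox2 over 0.632-fold to 1.13-fold.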

How the data were processed

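RNA of 2 libraries, PB-Gbx2 and PB, was sequenced after TruSeq RNA preparation, per the labels' protocols. Reads were aligned with STAR to mm9, per the submitters' processing notes. For the versions, annotation, counting tool and normalization, the entry is: not given in the sources used here. Each deposited level is a score, normalized and rounded to a whole number by the authors, and not a read count. The authors' deposited ratio and its log2 are PB over PB-Gbx2, the reverse of the ratios used here, and their deposited p-value and adjusted p-value come from an unstated test.

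Symbols that read as dates fill 21 of the 14501 rows, and summing repeated symbols gave 14500. Ratios, PB-Gbx2 over PB, were taken on log2(level + 1), which understates the difference of low genes. A gene passed 2-fold where this log2 value was 1 or more, or -1 or less, and some library had to reach a level of 1. Folds in the text are ratios of deposited levels. With 1 library per group no p-value was computed. Calling was tested on simulated levels with planted changes. Lengths came from GENCODE M21 and promoters and gene order from RefSeq on GRCm38.p6. Members, 12 gene lists and all rules were chosen with earlier results of these data known. Named genes were the members, Sox and POU genes, the 4 largest absolute log2 ratios of each other list, stem cell markers, the 3 nearest patterns and chromosomal neighbours. Some genes that this rule covers are not reported here. Further list members given with values (Fgf4, Utf1, Otx2, Rest, Msi1, Stmn2 and Tfap2c) and Gm4675 were chosen after their values were seen. Alternatives were pseudocounts of 0.1 and 5, minimum levels of 5, none and 100, rescaling by the median, a 1.5-fold threshold and coding length. Python 3.11.15, numpy 2.4.6, pandas 2.3.3 and matplotlib 3.10.9 were used.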

Additional observations from a re-analysis of the deposited data

How the results depend on the processing

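Of 280 values recomputed under the alternatives, 254 stayed within 1.5 times the reported value and none of the called values turned direction. Log2 ratios and medians were compared as folds, so a median near 0 could change sign and stay within that limit. A pseudocount of 0.1 moved none of the values beyond it. Nor did rescaling by the median or a minimum level of 5 or none, but the libraries already share a distribution and no row has a mean level under 8, so these settings say nothing about stability. With a pseudocount of 5 the log2 ratio of Sox3 was 2.13 in place of 2.95, and 1 fibroblast marker in place of 2 was at least 2-fold higher. With coding length, Sox21 amounted to 7.38% of Sox2 in PB-Gbx2 and 0.514% in PB, and Sox1 to 0.443% in PB-Gbx2 and 0.0825% in PB. At 1.5-fold, 1684 genes were higher (11.6%) and 1770 lower (12.2%). Counts in lists that moved by over 1.5 times at that threshold were, higher, 1 other Sox gene, 2 Sox2 regulators, 4 endoderm and trophectoderm markers, 4 fibroblast markers, 2 glia and neural crest markers and 3 neural progenitor genes, and, lower, 1 Sox2 regulator, 2 fibroblast markers, 2 glia and neural crest markers and 5 neuron genes. Requiring a level of 100 in either library, a choice made after seeing the data, removes Sox1 and Sox3 and left 269 genes higher (2.46%) and 259 lower (2.37%). The list counts that moved by over 1.5 times there were, higher, 0 POU partners, 0 Sox2 regulators, 0 endoderm and trophectoderm markers and 1 fibroblast marker, because fewer genes entered. The median was -1.14 for endoderm and trophectoderm markers, against 0.48 as reported, and 0.68 for glia and neural crest markers, against 0.09. The median of fibroblast markers also changed sign, to -0.36 against 0.20, though it is counted among the 254. That of POU partners was -0.23 against -0.03. No paired analysis was possible because there was a single library per vector, so leaving out a library was not possible either. The depth of the libraries is unknown, and the levels of Sox1 and Sox3 in PB were among the lowest in the table.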
